A study of Homo sapiens with 32 samples.

Results

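Heparan sulfate proteoglycans, the enzymes that build their sugar chains and the enzymes that edit those chains outside the cell were followed by RNA sequencing in neuroblastoma cells that expressed MYC or a MYC deletion mutant. The set was defined by name as 38 gene symbols, and all 38 were found among the 58317 genes of the authors' deposited table. It holds 12 core proteins and 26 enzymes.

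Heparan sulfate is a long, sulfated sugar chain attached to a small set of core proteins at the cell surface and in the extracellular matrix. Its synthesis starts with a short linker on a serine of the core, continues with a polymerase that adds alternating sugars, and ends with sulfotransferases that set where sulfate groups sit. The sulfate pattern decides which growth factors and morphogens the chain holds at the cell surface, and it is known to matter for FGF signalling and for neuronal differentiation of neuroblastoma cells.

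The cells were SH-EP/TET21/N (TET21), a human neuroblastoma line whose MYCN transgene is shut off by doxycycline. The labels give 8 groups of 4 libraries, 32 in all. The controls received the empty vector (EV), 1 group expressed MYC without a deletion (WT), and the rest expressed deletion mutants labelled d0x, d1, d2, d3a, d3b or d4. Which residues each mutant lacks is not in the labels. From their names the mutants are taken to lack the conserved MYC boxes 0, I, II, IIIa, IIIb and IV. The growth notes, written for WT-MYC cells, state that doxycycline was present at 1 µg/mL over the 7 days that preceded harvest, and all groups carry the same note and the same passage range. Whether a group was a clone or a pool, and whether its 4 libraries came from separate cultures, is not given in the sources used here, so the authors' calls may measure technical spread. The library titles are numbered n4 to n7 in every group, and whether equal numbers mark matched libraries was not tested.

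The authors' deposited table gives 7 comparisons, of WT with EV and of every mutant with WT. Each has a log2 fold and a PPDE, the posterior probability that the gene was differentially expressed (from 0 to 1), and a gene with no reads has no value. A gene is called where its PPDE is at least 0.95. The table holds no value per library, no level, no depth and no error of a fold. The 6 mutant comparisons share the 4 WT libraries, which also enter WT against EV, so a fold below 0 in WT against EV and folds above 0 in the mutants are not independent of each other. RNA came from whole cultures, in which fewer expressing cells and less RNA per cell cannot be told apart.

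MYC itself, the gene that the labels vary, had a log2 fold of 0.98 in WT against EV (PPDE 0.348, per the authors' deposited table), and no comparison called it, so these values do not check the labels by a call of MYC. Against WT, MYC had 0.57 in d0x, 0.46 in d1, 0.68 in d2, 0.67 in d3a, -0.09 in d3b and 0.57 in d4 in the authors' deposited table. The part of these MYC folds in those of the members was not tested. MYCN was not called either, with a log2 fold of -0.38 in WT against EV, per the authors' deposited table. Of 7 adrenergic neuroblastoma markers, TH had no value in any comparison of the authors' deposited table, while all 7 mesenchymal markers had values in each.

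In cells expressing WT MYC, more members fell than rose relative to the empty vector. In WT against EV, 7 of the 38 members fell in the authors' deposited table: the syndecan SDC4, the glypicans GPC4 and GPC6, the polymerase subunits EXT1 and EXT2, the N-sulfotransferase NDST3 and the sulfatase SULF2. HS6ST2, a 6-O-sulfotransferase, was the 1 member that rose. The members called made up 21.1% of the 38, and 4.91% of all tested genes were called in this comparison. All 38 members are protein coding, and of tested protein-coding genes, a background chosen after seeing the data, 9.83% were called in the authors' deposited table. By direction, 2.94% of tested genes fell and 1.97% rose, per the authors' deposited table. The median member had a log2 fold of -0.45 against -0.04 over all tested genes in the authors' deposited table. Of the 30 members never called in any comparison, 23 had a fold below 0 in WT against EV, and over all tested genes 52.8% did, per the authors' deposited table.

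**Figure D1:**
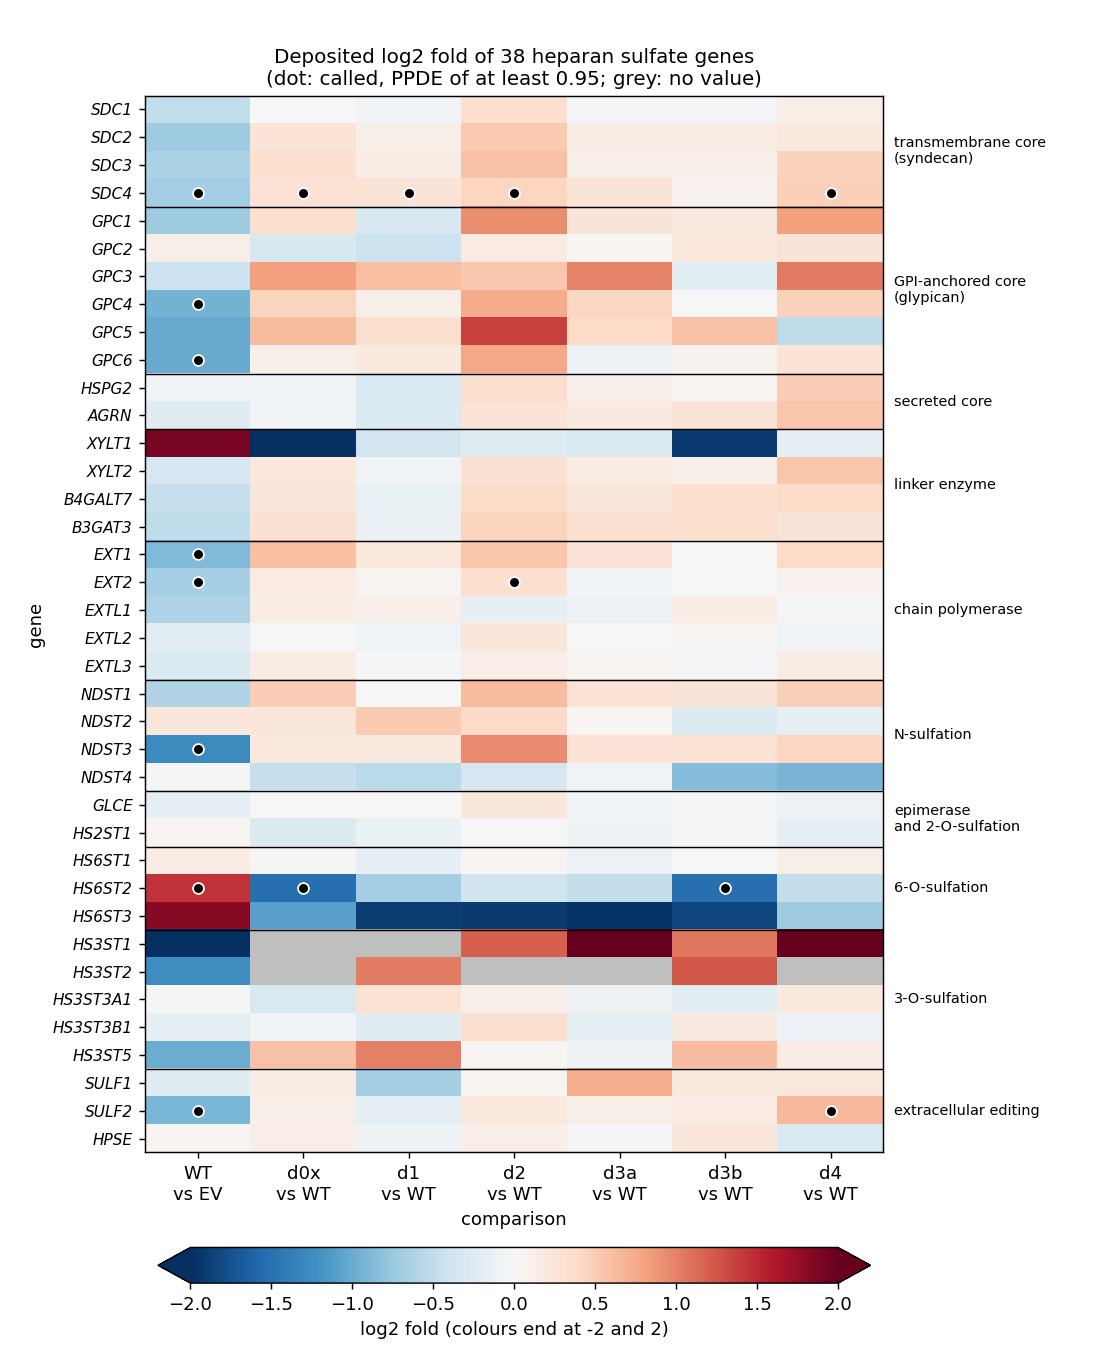
Log2 fold in the authors' deposited table for each of the 38 genes (rows, grouped by role) in each of the 7 comparisons (columns). Blue is lower and red is higher in the first-named group, a dot marks a call and grey marks no value. The left column holds 8 dots and is mostly blue, with 30 of 38 genes below 0, and the 6 mutant columns hold 8 dots in all.

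Against WT, few members were called in any mutant, and 4 genes accounted for all 8 calls. In d0x against WT, 1 of 36 members with a value rose (SDC4) and 1 fell (HS6ST2), with 0.34% of all tested genes risen and 0.219% fallen, per the authors' deposited table. In d1 against WT, SDC4 alone of 37 members rose and none fell, with 0.029% of all tested genes risen and 0.0895% fallen, per the authors' deposited table. In d2 against WT, SDC4 and EXT2 rose among 37 members and none fell, with 0.695% risen and 0.758% fallen over all tested genes of the authors' deposited table.

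No member of 37 was called in d3a against WT, where only 0.0131% of all tested genes rose and 0.0288% fell in the authors' deposited table. In d3b against WT, HS6ST2 alone of 38 members fell and none rose, with 0.0212% of all tested genes fallen and 0.0743% risen, per the authors' deposited table. In d4 against WT, SDC4 and SULF2 rose among 37 members and none fell, with 0.251% of all tested genes risen and 0.86% fallen, per the authors' deposited table. In d2, 31 of the 37 members had a fold above 0, as did 52.8% of all tested genes in the authors' deposited table. The median member had a log2 fold of 0.32 in d2, against 0.04 over all tested genes in the authors' deposited table. The other mutants' member medians in the authors' deposited table lay between -0.05 in d1 and 0.20 in d4. Over all tested genes the medians were -0.07 in d1, 0.06 in d3b and -0.05 in d4 in the authors' deposited table, so the members' -0.05 in d1 and 0.09 in d3b lay near the median tested gene. The PPDE was above 0.99 at all 16 called pairs of member and comparison in the authors' deposited table.

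SDC4, syndecan 4, is a transmembrane core protein found at focal adhesions, where it works with integrins. Its log2 fold in WT against EV was -0.70 in the authors' deposited table, a 1.63-fold fall. In the mutants it was 0.29 in d0x, 0.27 in d1, 0.43 in d2, 0.28 in d3a, 0.08 in d3b and 0.48 in d4 in the authors' deposited table. SDC4 rose in 4 of the 6 mutants and was called in 5 comparisons, more than any other member. The d3a fold was close in size to those of d0x and d1 but its PPDE was 0.154 in the authors' deposited table, so size alone did not set the calls. These were small changes: SDC4 ranked 112 of the 130 genes that rose in d0x and 10 of the 11 that rose in d1 in the authors' deposited table.

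The other syndecans were not called in any comparison. SDC1, which marks epithelia and plasma cells, SDC2, and the neural syndecan SDC3 had log2 folds of -0.49, -0.72 and -0.63 in WT against EV, per the authors' deposited table. SDC2 thus had a larger fold than SDC4 without a call. In d2 all 4 syndecans had folds above 0, from 0.33 to 0.58, in the authors' deposited table, as did 52.8% of all tested genes.

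SDC4 is listed by the authors with a MYC binding site, so the 250 bases before its RefSeq start (GRCh38.p14, chr20:45348425-45348674, minus strand, no annotated exon) are shown here. The window from 250 bases before to 50 bases after this start holds neither CACGTG, the E-box that MYC and MAX bind best, nor any other CANNTG. Both motifs read the same on either strand, and CANNTG includes CACGTG.
SDC4: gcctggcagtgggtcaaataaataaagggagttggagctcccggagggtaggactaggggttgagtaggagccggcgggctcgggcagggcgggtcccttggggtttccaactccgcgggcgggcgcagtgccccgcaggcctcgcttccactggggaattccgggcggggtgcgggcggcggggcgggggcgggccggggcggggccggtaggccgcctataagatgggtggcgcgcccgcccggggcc

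The glypicans are core proteins held at the membrane by a lipid (GPI) anchor, and they tune Wnt, Hedgehog and FGF signals. GPC4 had a log2 fold of -0.94 and GPC6 one of -1.01 in WT against EV, per the authors' deposited table, and both fell. Against WT, GPC4 ranged from -0.01 in d3b to 0.74 in d2, where its PPDE of 0.646 missed the threshold in the authors' deposited table. The GPC4 folds in d0x, d1, d3a and d4 were 0.45, 0.12, 0.41 and 0.46 in the authors' deposited table, with no call. GPC6 also had its highest mutant fold in d2, at 0.77, and lay between -0.12 and 0.28 in the other 5 mutants in the authors' deposited table.

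The remaining glypicans were not called in any comparison. GPC5 had log2 folds of -1.01 in WT against EV and 1.36 in d2 in the authors' deposited table, with PPDE of 0.0286 and 0.0727. GPC3 reached 1.04 in d4 with a PPDE of 0.0253 in the authors' deposited table. GPC1 and GPC2, the latter a surface antigen of neuroblastoma, had -0.71 and 0.12 in WT against EV, per the authors' deposited table. Large folds with a low PPDE thus stood beside smaller called folds within the same family.

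The secreted cores perlecan (HSPG2) and agrin (AGRN) belong to basement membranes and to the neuromuscular junction. They had log2 folds of -0.05 and -0.24 in WT against EV and of 0.49 and 0.55 in d4 in the authors' deposited table, with no call. Over all 12 core proteins the median was -0.67 in WT against EV, and the 26 enzymes had -0.27 in the authors' deposited table. In d2 all 12 cores had folds above 0, as did 52.8% of all tested genes in the authors' deposited table. The median of the cores in d2 was 0.53 against 0.22 for the 25 enzymes with a value in the authors' deposited table. No difference between cores and enzymes was tested.

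Linker enzymes add the short sugar stem that heparan and chondroitin sulfate share. XYLT2, which places the first xylose, B4GALT7 and B3GAT3 had log2 folds from -0.50 to -0.34 in WT against EV, per the authors' deposited table, and none was called. XYLT1 had 1.89 in WT against EV, -2.03 in d0x and -1.91 in d3b, each with a PPDE of 0 in the authors' deposited table. These XYLT1 folds were shared to the last printed digit with 12, 11 and 14 other genes of the authors' deposited table, so they are not read as a change.

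EXT1 and EXT2 form the polymerase that lengthens the chain, and the loss of either in the germ line causes multiple exostoses. EXT1 had a log2 fold of -0.88 and EXT2 one of -0.67 in WT against EV, per the authors' deposited table, and both fell. The EXT1 folds against WT were 0.61 in d0x, 0.22 in d1, 0.56 in d2, 0.27 in d3a, -0.01 in d3b and 0.40 in d4 in the authors' deposited table. None was called, with PPDE of 0.888 in d0x and 0.792 in d2 as the closest to the threshold in the authors' deposited table. EXT2 was called in d2 at the smaller log2 fold of 0.33 and lay between -0.05 and 0.16 in the other 5 mutants in the authors' deposited table. EXT2 ranked 252 of the 265 genes that rose in d2 by size in the authors' deposited table. The related EXTL1, EXTL2 and EXTL3 were below 0 in WT against EV, from -0.62 to -0.23, and uncalled in the authors' deposited table.

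N-deacetylase/N-sulfotransferases make the first sulfate mark, on which the later ones depend. NDST3 fell in WT against EV with a log2 fold of -1.28, a 2.42-fold fall and the largest among the 7 members that fell in the authors' deposited table. Against WT it had 0.21 in d0x, 0.20 in d1, 0.95 in d2, 0.27 in d3a, 0.27 in d3b and 0.43 in d4 in the authors' deposited table, all above 0 and none called. Its PPDE in d2 was 0.0359 in the authors' deposited table, despite the size of that fold. NDST1, the form most tissues use, had -0.60 with a PPDE of 0.647 in WT against EV and 0.49 with a PPDE of 0.349 in d0x in the authors' deposited table. NDST2 and NDST4 had 0.22 and -0.03 in WT against EV, per the authors' deposited table, without a call.

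NDST3 is also listed by the authors with a MYC binding site, and 1 of its 2 RefSeq starts has no annotated exon in the 250 bases before it. Those bases (GRCh38.p14, chr4:118033072-118033321, plus strand) are shown as a contrast to SDC4, with each CANNTG in capitals. The window holds 4 such motifs and no CACGTG.
NDST3: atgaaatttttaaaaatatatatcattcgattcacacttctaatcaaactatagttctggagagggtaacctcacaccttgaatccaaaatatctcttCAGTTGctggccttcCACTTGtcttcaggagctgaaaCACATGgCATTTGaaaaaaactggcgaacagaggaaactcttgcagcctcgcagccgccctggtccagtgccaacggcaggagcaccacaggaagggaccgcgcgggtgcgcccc

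HS6ST2 transfers sulfate to the 6-O position of glucosamine, a mark that FGF receptors need for heparan sulfate to bring them together with their ligand. It rose in WT against EV with a log2 fold of 1.44, a 2.72-fold rise, and ranked 58 of the 754 genes that rose by size in the authors' deposited table. It fell in d0x at -1.51 and in d3b at -1.50, per the authors' deposited table. In the other mutants HS6ST2 had -0.69 in d1, -0.40 in d2, -0.47 in d3a and -0.47 in d4 in the authors' deposited table, with PPDE of 0.027 or less. The d0x and d3b folds were thus the lowest of the 6, and all 6 lay below 0. Among genes that fell, HS6ST2 ranked 6 of 84 in d0x and 2 of 8 in d3b by size in the authors' deposited table. No test of d0x or d3b against the other mutants was possible from these values.

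The other 6-O-sulfotransferases gave no call. HS6ST1 stayed between -0.16 and 0.14 in the 7 comparisons of the authors' deposited table. HS6ST3 had 1.83 in WT against EV and between -1.97 and -0.71 in the mutants, with a PPDE of 0 throughout the authors' deposited table. From 5 to 21 other genes shared each HS6ST3 fold exactly in the authors' deposited table.

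The epimerase GLCE and the 2-O-sulfotransferase HS2ST1 act between the N- and 6-O-sulfation steps. Their log2 folds lay between -0.29 and 0.23 in the 7 comparisons of the authors' deposited table, without a call. The 3-O-sulfotransferases make the rarest mark, the one antithrombin needs. HS3ST5 had -0.99 in WT against EV and 1.00 in d1 in the authors' deposited table, with PPDE of 0.121 and 0.00594. HS3ST3A1 and HS3ST3B1 are near-identical in part, so that reads could be split between them, and their folds lay between -0.31 and 0.32 in the authors' deposited table. HS3ST1 had -3.69 in WT against EV, 1.19 in d2, 2.69 in d3a, 1.05 in d3b and 2.45 in d4, each with a PPDE of 0, and no value in d0x and d1, in the authors' deposited table. HS3ST2 had a value in only 3 comparisons, -1.24 in WT against EV, 1.02 in d1 and 1.25 in d3b, each shared with 334 or more other genes of the authors' deposited table. No 3-O-sulfotransferase can therefore be said to have changed.

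Outside the cell, SULF1 and SULF2 remove 6-O-sulfates from finished chains, and heparanase (HPSE) cuts the chains. SULF2 fell in WT against EV with a log2 fold of -0.92 and rose in d4 with 0.64 in the authors' deposited table. Its other folds were 0.12 in d0x, -0.19 in d1, 0.22 in d2, 0.11 in d3a and 0.16 in d3b in the authors' deposited table, none called. SULF2 thus stood above WT by call in d4 only, and the difference between d4 and the other mutants was not tested. SULF1 and HPSE had -0.25 and 0.05 in WT against EV, per the authors' deposited table, and were never called, with SULF1 ranging in the mutants from -0.67 in d1 to 0.73 in d3a.

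In GENCODE 29, SULF2 overlaps NCOA3 on the opposite strand, and whether reads were counted by strand is not given in the sources used here. NCOA3 fell in WT against EV with a log2 fold of -0.59 and had 0.12, uncalled, in d4 in the authors' deposited table. Without counting by strand, reads in the stretch that SULF2 and NCOA3 share could not be told apart. HS6ST2 likewise overlaps HS6ST2-AS1, which had 1.04 in WT against EV, -0.08 in d0x and -1.05 in d3b in the authors' deposited table, with a PPDE of 0 in each. GPC6 overlaps GPC6-AS1 and GPC6-AS2, with -1.10 and -0.72 in WT against EV, per the authors' deposited table.

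**Figure D2:**
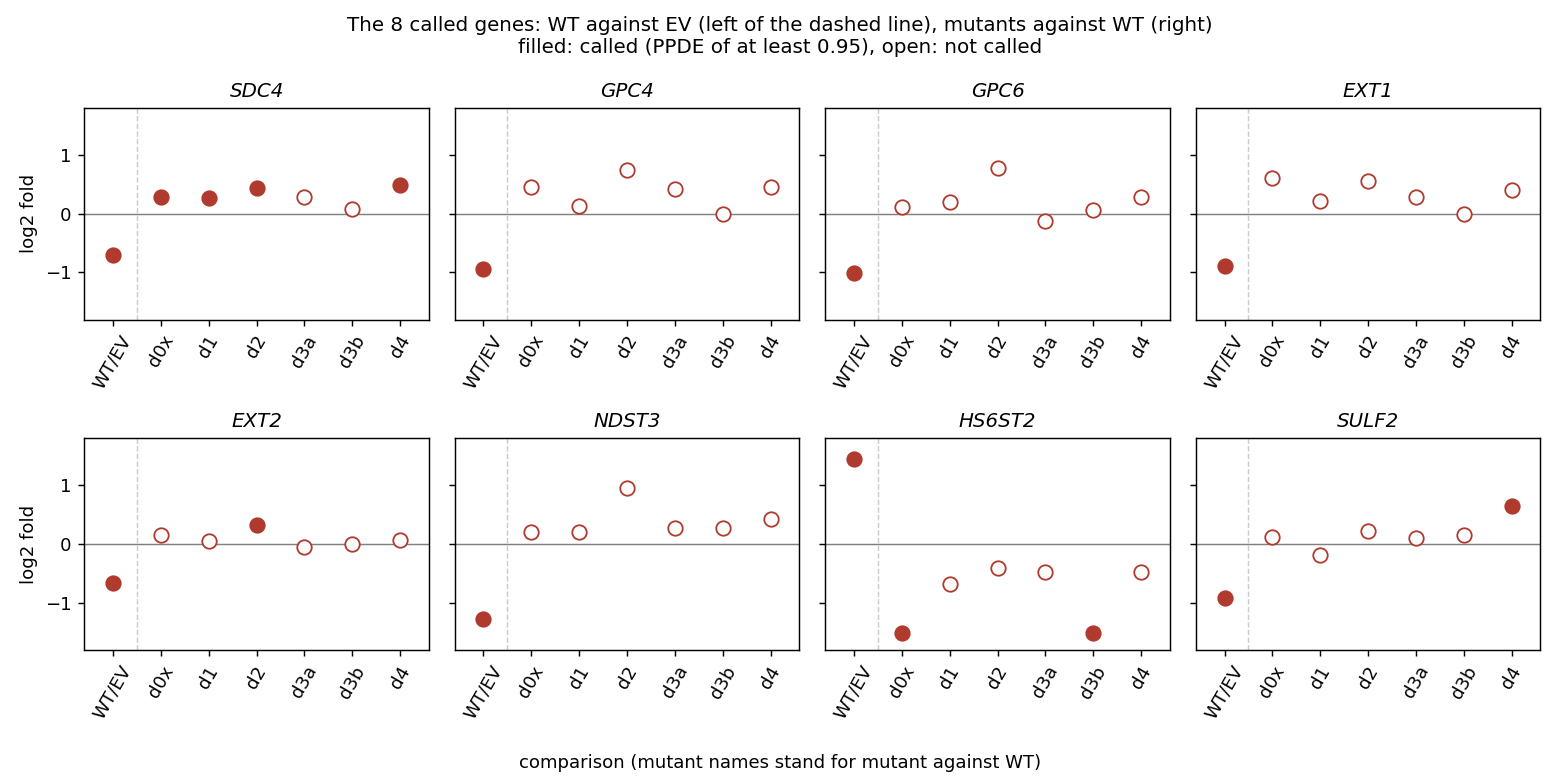
Log2 fold in the authors' deposited table (vertical axis) of the 8 called genes in WT against EV (left of each dashed line) and in each mutant against WT (right). Filled points are called and open points are not. SDC4 has 5 filled points, HS6ST2 has 3, EXT2 and SULF2 have 2 each, and GPC4, GPC6, EXT1 and NDST3 have only that of WT against EV.

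The position of each mutant relative to the empty vector was taken as the sum of its fold against WT and the fold of WT against EV, which is arithmetic on the authors' deposited table and has no call. For HS6ST2 this sum was -0.06 in d0x and -0.06 in d3b, and between 0.76 and 1.04 in the other 4 mutants, from the authors' deposited table. By this arithmetic HS6ST2 lay near the vector in d0x and d3b and above it in the other 4 mutants, without a test. HS6ST2 was likewise picked by its rise over the same EV libraries. For SDC4 the sums ran from -0.63 in d3b to -0.22 in d4, and for SULF2 from -1.11 in d1 to -0.28 in d4, from the authors' deposited table. For NDST3 the d2 sum was -0.32 and the other 5 lay between -1.07 and -0.85, from the authors' deposited table. For all 7 members that fell, every sum was below 0. These 7 were picked by their fall from the same EV libraries, which favours sums below 0. No error can be given for a sum, so whether any mutant returned to the level of the vector was not tested.

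The second deposited table lists 9368 genes to which the authors assigned a MYC binding site, mapped in 1 experiment on WT-MYC cells. It holds 22 of the 38 members (57.9%), beside 48.3% of the tested protein-coding genes and 21.7% of all tested genes, as counted from the authors' deposited tables. Of the 8 called members it holds SDC4, SULF2, EXT1, GPC6 and NDST3 and not HS6ST2, EXT2 or GPC4. The median log2 fold in WT against EV was -0.40 for the 22 listed members and -0.53 for the other 16 in the authors' deposited table of all genes. Members with and without an assigned site were thus both mostly below 0.

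The second table has its own folds and PPDE. There SDC4 was called in WT against EV, d0x and d4 but not in d1 (PPDE 0.326) or d2 (PPDE 0.769), per that authors' deposited table. The SDC4 fold in d3b was 0.08 in the authors' deposited table of all genes and -0.01 in that of bound genes. This shift is not particular to SDC4. Over all bound genes, folds in the first table minus those in the second had a median of 0.08 in d3b, -0.08 in d1 and -0.07 in d4. SULF2 was called in the same 2 comparisons, and EXT1, GPC6 and NDST3 in WT against EV, in both of the authors' deposited tables. The folds of the 22 members in WT against EV differed between the authors' deposited tables by -0.05 to 0.01. In d2 they differed by -0.14 to 0.12, in d3a by -0.14 to 0.02 and in d1 by -0.14 to 0.02, with a median difference of -0.10 in d1, between the authors' deposited tables. In d3b the members differed by 0.04 to 0.09 and in d4 by -0.12 to -0.04, so all shifted the same way within each.

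**Figure D3:**
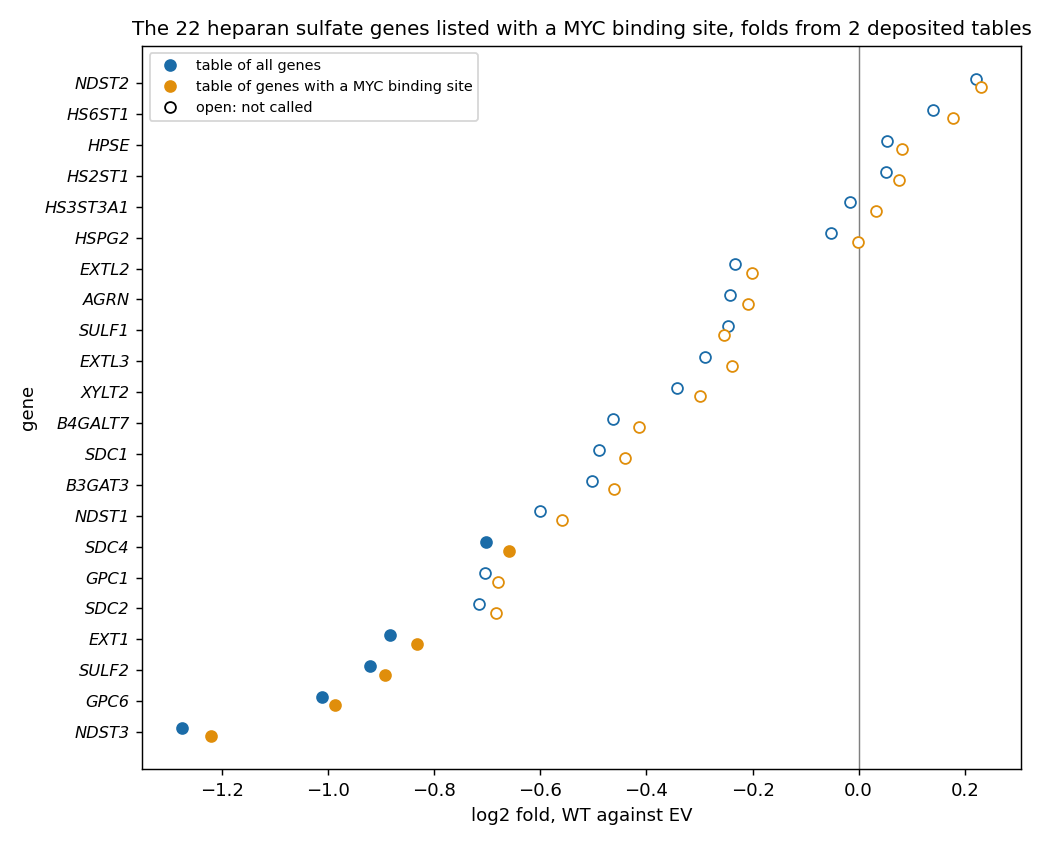
Log2 fold in WT against EV (horizontal axis) of the 22 members listed with a MYC binding site, from the authors' deposited table of all genes (blue) and from that of bound genes (orange). Filled points are called. The same 5 genes, SDC4, EXT1, SULF2, GPC6 and NDST3, are filled in both, and NDST3 lies lowest.

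Promoter windows were found in RefSeq for 32 of the 38 members, with 42 starts, each running from 250 bases before the start to 50 after. CACGTG was present at 4 member starts (9.52%), against 7.26% of 35116 starts of all genes. CANNTG was present at 26 member starts (61.9%) against 68.7% of all starts. The 4 members with CACGTG are SULF2, EXTL2, HPSE and HS3ST3A1, all listed by the authors with a MYC binding site. Of these SULF2 alone was called in any comparison of the authors' deposited table. A 30-base stretch around each motif is shown, with CACGTG in capitals, since these are the only member windows with the best-known MYC site. The stretches of SULF2 and EXTL2 overlap an annotated exon, and those of HPSE and HS3ST3A1 do not. The motif begins 63 bases before 1 of the 4 SULF2 starts (GRCh38.p14, chr20:47786142-47786171, minus strand). It begins 150 bases before the start in EXTL2 (chr1:100894975-100895004, minus strand), 31 before 1 of the 3 starts in HPSE (chr4:83335167-83335196, minus strand) and 14 before the start in HS3ST3A1 (chr17:13601930-13601959, minus strand).
SULF2: gttacgcacacaCACGTGcacacaaggctc
EXTL2: aaggtggtccgtCACGTGaatgtttaaaag
HPSE: gagcgcgcagaaCACGTGcgtcaggaagcc
HS3ST3A1: gctgccctcggcgtccCACGTGtggcggcg

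Genes beside the members in the same pathway were taken from 6 lists. Over all tested genes 2.94% fell, 1.97% rose and 52.8% had a fold below 0 in WT against EV, per the authors' deposited table. Shares for the mutants are those given with the members. Among 11 other core proteins and related proteoglycans, SPOCK1, SRGN and NRP1 fell in WT against EV, with log2 folds of -1.33, -1.00 and -0.72 in the authors' deposited table. None of the 11 was called in any mutant in that table. The authors' deposited table of bound genes also called SPOCK1 in d2, at 1.02, and TGFBR3 in WT against EV, at -0.44. SPOCK1 is a secreted testican, SRGN is the granule proteoglycan serglycin, and NRP1 is a co-receptor for semaphorin and VEGF. All 11 had a fold below 0 in WT against EV, as did 52.8% of all tested genes, per the authors' deposited table. Of 8 other heparan sulfate enzymes, 4 had values in WT against EV and none was called in any comparison of the authors' deposited table.

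The lysosomal enzymes that degrade heparan sulfate gave the most calls of these lists in proportion to their number. In WT against EV, 4 of 10 fell and none rose, with 2.94% of all tested genes fallen in the authors' deposited table. Among them were HGSNAT at -0.74, SUMF2 at -0.66 and SUMF1 at -0.54 in the authors' deposited table. HGSNAT acetylates the chain end, while SUMF1 activates sulfatases and SUMF2 is its relative. HGSNAT rose in d0x (0.33), d2 (0.62) and d4 (0.33), and SUMF2 rose in d2 (0.59) and d4 (0.42) in the authors' deposited table. In the authors' deposited table of bound genes, SUMF2 was not called in d2 (PPDE 0.356), and HGSNAT in d1 (0.34) and ARSG in d4 (0.51) were called. SULF1 and SULF2 are among the sulfatases that need the step carried out by SUMF1.

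Of 13 genes that supply sugar and sulfate donors, none was called in WT against EV in the table of all genes. Of these 13, 10 had folds below 0 in WT against EV, as did 52.8% of all tested genes. PAPSS1 at -0.27 and PAPSS2 at -0.61, which make the sulfate donor, were called as lower there in the authors' deposited table of bound genes. BPNT1, which clears a by-product of sulfate transfer, fell in d4 with -0.26 in the authors' deposited table. Of 16 enzymes of chondroitin and dermatan sulfate, the sister chains that share the linker, CSGALNACT1 alone was called in the table of all genes, at -0.84 in WT against EV and 1.11 in d2 in that authors' deposited table. CSGALNACT2 was called in WT against EV, at -0.52, in the authors' deposited table of bound genes.

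In WT against EV, 2.94% of all tested genes fell. Among 23 heparan sulfate binding growth factors and FGF receptors, 4 fell in WT against EV and none rose in the authors' deposited table. These were FGF1 at -2.35, SLIT3 at -2.16, WNT5A at -1.30 and PDGFA at -0.70 in the authors' deposited table. Most genes of this list are ligands, as are these, so their being ligands is not read as a result. In d2, SLIT3 (1.71), FGF1 (1.70) and PDGFA (0.55) rose, and in d4 SLIT3 rose with 1.05 in the authors' deposited table. The other 4 mutants had no call in this list. In the authors' deposited table of bound genes, SLIT3 (PPDE 0.882) and PDGFA (PPDE 0.293) were not called in d2, and HBEGF was called in WT against EV, at -0.53.

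Markers of cell state and of other cell types were called in WT against EV and in d2 only. No marker was called in d0x, d1, d3b or d4, though some marker folds in d4 were large. There KRT5 had 3.68 (PPDE 0.791), KRT14 3.61 (PPDE 0.680) and FN1 0.93 (PPDE 0.939) in the authors' deposited table. In d4 all 4 epithelial markers and 5 of the 7 mesenchymal markers had folds above 0, as did 45.2% of all tested genes. Of the 7 mesenchymal markers, FN1 at -2.51 and SNAI2 at -1.35 fell in WT against EV, and both rose in d2, at 1.77 and 1.36, in the authors' deposited table. Of 4 epithelial markers, KRT5 at -5.10, KRT14 at -4.66 and CDH1 at -3.59 fell in WT against EV, per the authors' deposited table, and EPCAM had -3.46 with a PPDE of 0.933. EPCAM was called in the authors' deposited table of bound genes, with a PPDE of 0.976. The endothelial marker TEK fell at -2.21 and the adrenergic marker HAND2 rose at 0.48 in WT against EV, per the authors' deposited table, and no immune marker was called in any comparison. The part of these cell-state differences in the folds of the members was not tested, and marker levels per library were not used here.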

How the data were processed

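RNA sequencing of 32 TET21 libraries in 8 groups of 4 was used through 2 tables of the authors' own comparisons. Per the file headers, the deposited values are a log2 posterior fold change and a posterior probability of differential expression, a score from 0 to 1, with a call at 0.95 taken as a false discovery rate below 0.05. Genes whose read counts were 0 have no value, per the file headers. Tools named in the submitters' processing notes are DESeq, edgeR 3.16.5, R 3.3.1 and STAR 2.5.2a, with the build GRCh37 and no role for any, and library scaling is not given in the sources used here.

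From these tables, members were matched by exact symbol and counted, ranked and summarised by median with Python 3.11.15 and pandas 2.3.3 (figures: matplotlib 3.10.9), with counting tested on simulated data. No test was fitted, because values per library, depths and errors were not used here, so no error can be given for a fold. Members and lists were chosen with earlier results of these data known. Members called at least once were named with their folds, as were uncalled members with a probability of 0.5 or an absolute log2 fold of 1 or more. Pathway list members were named where called, except that some list genes are not reported here by name. Alternatives were thresholds of 0.9 and 0.99, a minimum absolute log2 fold of 1, centred folds and the second table. Gene types and overlaps came from GENCODE 29, and promoter sequences from RefSeq on GRCh38.p14. Neither was set beside GRCh37 coordinates.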

Additional observations from a re-analysis of the deposited data

How the results depend on the processing

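No paired analysis was possible because the deposited tables hold comparisons and no values per library, and leaving out replicates was not run for the same reason. The number of called members in each of the 7 comparisons was the same at thresholds of 0.9 and 0.99, and centring the folds on the median tested gene changed the direction of no called fold. With an absolute log2 fold of at least 1 also required, 3 members were called in WT against EV and 1 in d0x, with 0 in d1, d2 and d4. Under this setting 1.59% of all tested genes were called in WT against EV and 0.0601% in d0x. In the authors' table of bound genes, which holds 22 members, 5 members were called in WT against EV and 1 in d0x, with 0 in d1, d2 and d3b. That table lacks HS6ST2, EXT2 and GPC4. Counted over the same 22 members, the table of all genes also called 5 in WT against EV, 1 in d0x and 0 in d3b. The lower counts in these comparisons thus come from the absent genes alone. In d1 and d2 the same 22 members gave 1 call each in the table of all genes, that of SDC4. In the table of bound genes the SDC4 folds were 0.34 in d1 and 0.42 in d2 and were no longer called, and the cause was not tested. Depth was not used here, so a low probability cannot be told apart from few reads.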
